A study of Mus musculus with 6 samples.

Results

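The quinone reductases Nqo1 and Nqo2, the carbonyl reductases Cbr1 to Cbr4, the aldo-keto reductases Akr1b3, Akr1b7 and Akr1b8, and the prostaglandin reductase Ptgr1 were followed in mouse skin with active Nrf2. Members were chosen by gene symbol, as every probe set that the annotation of the array gives to 1 of these 10 genes. The annotation gave 10 probe sets for 8 of the 10 genes, out of 18193 genes measured, and Akr1b3 and Akr1b7 were not analysed here. Nqo2 had 3 probe sets and each of the other 7 genes had 1.

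Whole back skin was taken from 6 female mice of a single litter on postnatal day 2.5, on a mixed FVB/N and C57BL/6 background. In 3 mice (K5cre-caNrf2, tg/tg) a keratin 5 Cre driver switched on a constitutively active form of Nrf2 (caNrf2), and 3 littermates (K5cre-wt, tg/wt) served as controls. Both groups carry the Cre driver, per the labels. The genotype cell of the caNrf2 animals reads tg/g, and the treatment cell names the active transgene on the controls as well, so groups follow the sample titles. These titles read transgene strong 1 to 3 and wildtype strong 1 to 3. Each mouse gave 1 array, from 2 ug of total RNA. Keratin 5 drives recombination in basal keratinocytes and their descendants, whereas the RNA came from all cells of the skin. In such bulk samples, fewer cells of a type and less RNA per cell cannot be told apart.

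Nrf2 is a transcription factor that binds antioxidant response elements with small Maf proteins and is degraded through Keap1 in unstressed cells. Quinone, carbonyl and aldo-keto reductases use NADPH or NADH to turn reactive quinones, aldehydes and ketones into less reactive hydroquinones and alcohols. Nqo1 is the textbook Nrf2 target, and skin meets such compounds as environmental toxins and as products of lipid peroxidation.

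The sequences just upstream of the start sites are shown for the 5 genes that were higher in caNrf2 skin and for Nqo2, the quinone reductase that did not pass the test. RefSeq promoter windows (build GRCm38.p6) were found for all 8 measured genes. The windows printed are the last 120 bases before the annotated start, read 5′ to 3′, at chr8:107403206-107403325 (minus strand) for Nqo1, chr16:93607717-93607836 (plus strand) for Cbr1, chr16:93683099-93683218 (plus strand) for Cbr3, chr6:34354026-34354145 (plus strand) for Akr1b8, chr4:58987079-58987198 (minus strand) for Ptgr1 and chr13:33964539-33964658 (plus strand) for the start of Nqo2 with the lower coordinate. Capitals mark GGGCGG (the GC box) or its reverse complement, and TATAAA (the TATA box).
Nqo1: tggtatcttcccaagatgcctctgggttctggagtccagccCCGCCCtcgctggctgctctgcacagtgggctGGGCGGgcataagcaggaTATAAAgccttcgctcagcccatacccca
Cbr1: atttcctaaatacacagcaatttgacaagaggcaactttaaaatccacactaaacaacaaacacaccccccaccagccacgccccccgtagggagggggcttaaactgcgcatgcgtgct
Cbr3: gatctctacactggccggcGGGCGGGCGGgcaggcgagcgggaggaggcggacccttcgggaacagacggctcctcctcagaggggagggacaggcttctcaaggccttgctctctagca
Akr1b8: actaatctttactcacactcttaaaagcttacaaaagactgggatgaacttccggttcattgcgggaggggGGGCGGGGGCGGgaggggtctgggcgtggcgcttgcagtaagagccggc
Ptgr1: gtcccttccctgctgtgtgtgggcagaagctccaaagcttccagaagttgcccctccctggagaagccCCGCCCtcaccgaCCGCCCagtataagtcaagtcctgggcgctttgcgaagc
Nqo2: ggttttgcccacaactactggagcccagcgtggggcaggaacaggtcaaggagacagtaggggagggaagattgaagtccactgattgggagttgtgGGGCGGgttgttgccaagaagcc
In the 250 bases before the start, searched on both strands, GGGCGG lay in 4 of the 5 genes that were higher, all but Cbr1, and in 5 of all 8 genes. The same motif lay in 32.7% of the 32851 promoter windows of the RefSeq table. Both copies in Cbr3 overlap each other, and the pair in Akr1b8 is adjacent. TATAAA lay in Nqo1, at 29 bases before the start, and in Akr1b8, on the reverse strand and outside the bases printed, against 12.4% of all windows. The core of the antioxidant response element, TGACNNNGC, lay in none of the 8 genes within these 250 bases, against 10.2% of all windows. The AP-1 motif TGACTCA was likewise in none of the 8, against 4.46% of all windows. These matches describe letters only, and sequence further upstream was not analysed here.

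Of the 8 measured genes, Nqo1, Cbr1, Cbr3, Akr1b8 and Ptgr1 were higher in caNrf2 skin, 0 were lower, and Nqo2, Cbr2 and Cbr4 did not pass. At an unadjusted p under 0.05 in limma, 1 of the 8 genes, Cbr4, was lower, against 9.55% of all genes at that threshold. A gene was called at an adjusted p under 0.05 in limma, a linear model fitted over all genes with moderated variances and Benjamini-Hochberg adjustment. In this comparison 2.26% of all 18193 genes were higher and 1.39% were lower. A fold of at least 2 upward was reached by 61 genes, or 0.335% of all, and the 5 reductases that were higher are among those 61. The median log2 fold change was 1.55 over the 8 genes and 0.00 over all genes. By size of the log2 fold change among all 18193 genes, Nqo1 ranked 4, Cbr3 14, Akr1b8 18, Cbr1 33 and Ptgr1 34.

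**Figure D1:**
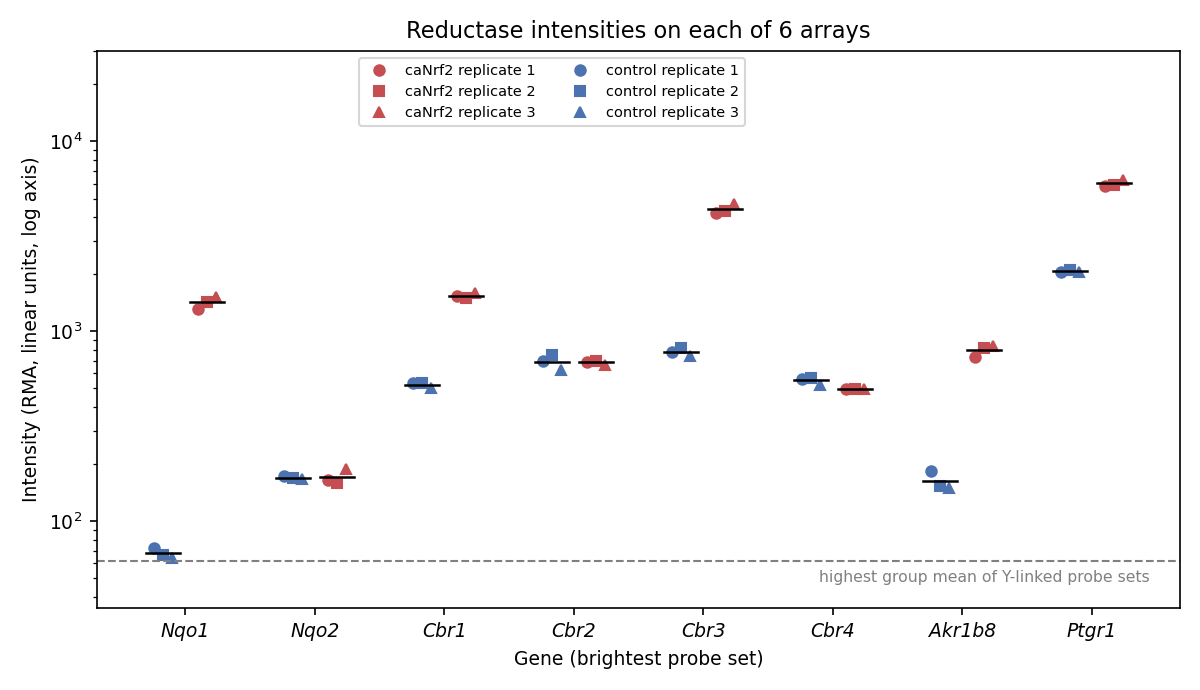
Intensity of the brightest probe set of each of 8 reductase genes on 6 arrays (RMA values in linear units, drawn on a log axis), with a marker per mouse, a bar at each group mean, and a dashed line at the highest group mean of Y-linked probe sets, 61.6. Nqo1, Cbr1, Cbr3, Akr1b8 and Ptgr1 show separate groups with caNrf2 above control, whereas Nqo2 and Cbr2 overlap.

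Among the quinone reductases, Nqo1 had the widest gap between the groups. Nqo1 reduces quinones directly to hydroquinones and so bypasses the semiquinone radical. Its intensity was 1315, 1432 and 1512 in the caNrf2 mice and 72.6, 66.2 and 64.3 in the control mice. Every caNrf2 mouse lay far above every control. The means were 1419 ± 99.3 and 67.7 ± 4.36 (SD, n = 3), a 21.0-fold difference with a 95% confidence interval from 18.7 to 23.5. The log2 fold change was 4.39 ± 0.07 (SE; limma, adjusted p = 2.25e-09). The control level lay just above the background of the array. Genes of the Y chromosome have no transcript in female mice, and their 20 probe sets had group means between 6.46 and 61.6. With 16 added to each value before taking logs, the log2 fold change of Nqo1 was 4.10.

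Nqo2, a relative of Nqo1 that takes its electrons from dihydronicotinamide riboside in place of NADPH, did not pass with any of its 3 probe sets. The brightest read 165, 158 and 188 in caNrf2 mice and 173, 168 and 167 in controls, so the groups overlapped. Its log2 fold change was 0.00 ± 0.07 (SE; limma, adjusted p = 0.985), with a 95% confidence interval for the fold from 0.895 to 1.12. The next brightest probe set had means of 101 ± 9.75 in caNrf2 and 103 ± 9.68 in control skin (SD, n = 3), with a log2 fold change of -0.02 ± 0.10. The third read 14.9 ± 0.971 and 16.3 ± 0.984, within the range of the Y-linked probe sets, with a log2 fold change of -0.13 ± 0.08. In the fit over all 45037 probe sets, where 1.04% were called higher and 0.633% lower, the adjusted p of these 2 probe sets was 0.919 and 0.393.

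**Figure D2:**
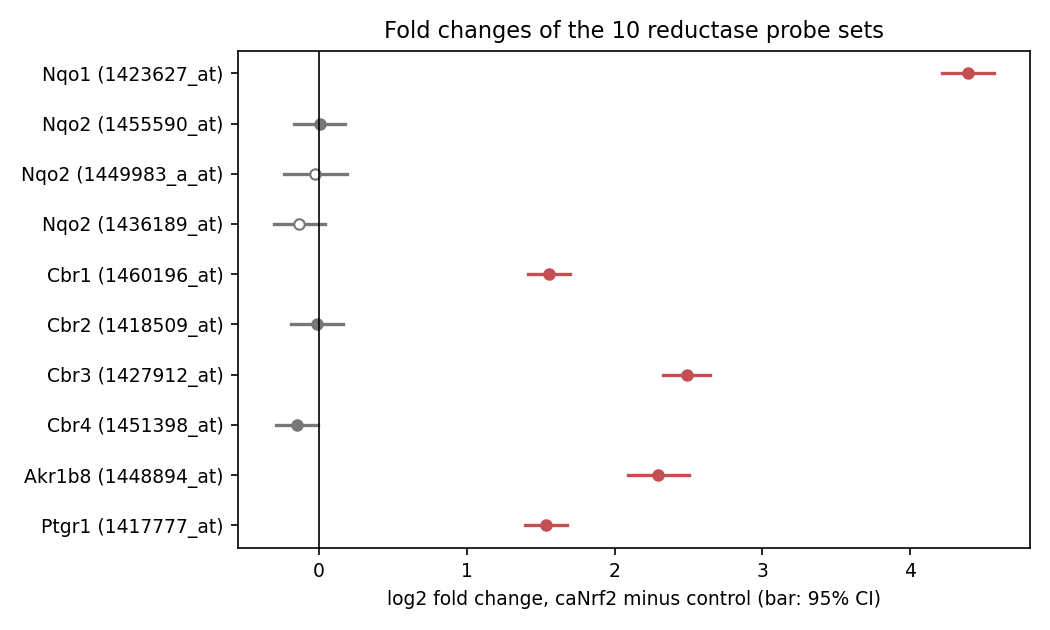
Log2 fold change (caNrf2 minus control) of each of the 10 probe sets, with 95% confidence intervals from the limma fit over all probe sets; red marks probe sets called higher, grey those not called, and open circles the dimmer Nqo2 probe sets. The 3 Nqo2 intervals and that of Cbr2 include 0, that of Cbr4 lies just below 0, and the 5 red intervals lie above 1.

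The carbonyl reductases split. Cbr1 and Cbr3 are closely related cytosolic enzymes and neighbours on mouse chromosome 16, of which Cbr1 acts on many quinones, aldehydes and prostaglandins. Cbr3 read 4173, 4295 and 4685 in caNrf2 mice and 780, 820 and 745 in controls. Cbr1 read 1535, 1499 and 1590 against 535, 534 and 504. Neither gene showed overlap between the groups. Cbr3 was 5.60-fold higher (95% confidence interval 5.04 to 6.23; log2 fold change 2.49 ± 0.07; limma, adjusted p = 4.35e-08). Cbr1 was 2.94-fold higher (95% confidence interval 2.68 to 3.22; log2 fold change 1.56 ± 0.06; limma, adjusted p = 3.22e-07).

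Cbr2 and Cbr4, both mitochondrial members, did not pass. Cbr2, a tetrameric enzyme best known from mouse lung, read 687, 700 and 669 in caNrf2 mice and 698, 753 and 629 in controls. The caNrf2 values lay inside the control range. Its log2 fold change was -0.01 ± 0.07 (SE; limma, adjusted p = 0.94), with a 95% confidence interval for the fold from 0.884 to 1.11. Cbr4, a subunit of the ketoacyl reductase of mitochondrial fatty acid synthesis, read 494, 499 and 499 in caNrf2 mice and 562, 569 and 525 in controls. All 3 caNrf2 values lay below all 3 control values, as groups were separate in 25.7% of all genes. The log2 fold change of Cbr4 was -0.15 ± 0.06 (SE; limma, adjusted p = 0.199), with a 95% confidence interval from -0.28 to -0.02.

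Akr1b8 is an aldo-keto reductase that reduces aldehydes, some of them products of lipid peroxidation. It read 731, 816 and 832 in caNrf2 mice and 183, 153 and 150 in controls. The groups were separate, and control replicate 1 lay above the other two controls. Akr1b8 was 4.91-fold higher (95% confidence interval 4.27 to 5.64; log2 fold change 2.29 ± 0.09; limma, adjusted p = 3.86e-07). Its SE was the largest of the 5 genes that were higher.

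Ptgr1 reduces the carbon-carbon double bond of unsaturated aldehydes and ketones and also inactivates leukotriene B4 and prostaglandin metabolites. It read 5855, 5881 and 6295 in caNrf2 mice and 2063, 2100 and 2049 in controls. The means were 6010 ± 247 and 2071 ± 26.3 (SD, n = 3), a 2.90-fold difference with a 95% confidence interval from 2.65 to 3.18. The log2 fold change was 1.54 ± 0.06 (SE; limma, adjusted p = 3.22e-07).

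In the 3 pairs of relatives compared, log2 fold changes differed by more than the spread between arrays. The log2 fold change of Nqo1 exceeded that of Nqo2 by 4.39 ± 0.07 (SE, n = 3 per group), with a 95% confidence interval from 4.19 to 4.58. That of Cbr3 exceeded that of Cbr1 by 0.93 ± 0.04 (0.82 to 1.04), and that of Cbr1 exceeded that of Cbr4 by 1.70 ± 0.03 (1.63 to 1.78). In each pair the difference was larger in all 3 caNrf2 mice than in any control. The exact two-sided permutation p was 0.1 in each pair, the smallest that 3 against 3 arrays allow, and 0.1 after adjustment over the 3 pairs.

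Within the groups, most of the measured genes shared the place of some arrays, a pattern noticed after the values were seen. The caNrf2 replicate 3 had the highest value of its group in 7 of 8 genes, against 29.8% of all genes. In Cbr2 it had the lowest. In Cbr4 it read 498.967, almost level with the 498.801 of replicate 2. The next brightest probe set of Nqo2 was highest in caNrf2 replicate 2. Control replicate 3 had the lowest value of its group in 8 of 8 genes, called or not, against 44.6% of all genes. In the 5 genes that were higher, these deviations were small beside the differences between groups. On the log2 scale the largest from a group mean was 0.19, for Akr1b8 in control replicate 1. Nfe2l2, the gene of Nrf2, read 1136, 1222 and 1242 in caNrf2 mice and 825, 726 and 774 in controls, so caNrf2 replicate 3 was the highest of its group, while the lowest control was replicate 2 and not replicate 3. Whether this probe set detects the transgene transcript was not tested.

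Most genes next to the reductases on their chromosomes did not pass, as was so for most of all genes. The nearest measured protein-coding gene on each side of the 8 genes gave 14 genes outside the set, chosen after the values above were known. Of these, 1 was higher and 0 were lower, against 2.26% and 1.39% of all genes. Their log2 fold changes ran from -0.19 to 0.39. The higher gene was Setd4, the neighbour of Cbr1 on the side away from Cbr3, at 185 ± 4.19 in caNrf2 and 143 ± 17.4 in control skin (SD, n = 3; limma, adjusted p = 0.04). Setd4 passed when control replicate 2 was left out but missed the threshold when any other array was, with an adjusted p as high as 0.129. On the other side of Cbr3, Dop1b gave 0.18 ± 0.07 (limma, adjusted p = 0.189). Akr1b10, the neighbour and close relative of Akr1b8, read 116 ± 4.76 and 104 ± 5.61, a log2 fold change of 0.15 ± 0.07 (limma, adjusted p = 0.226). Its other 2 probe sets had means within the range of the Y-linked probe sets.

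Other reductases were higher in few cases. Of 61 listed genes from related enzyme classes, 57 were measured, 4 were higher, 1 was lower and 52 did not pass, a share of 7.02% higher against 2.26% of all genes. The median log2 fold change of the 57 was 0.00, as over all genes. The flavin and haem-linked reductases held 3 of the 4, or 23.1% of the 13 measured in that class. The aldo-keto reductases held the other, or 7.14% of 14, and the short-chain and medium-chain classes held none. The list was chosen with earlier results of these data known. Blvrb, which reduces biliverdin and flavins, read 2162, 2122 and 2331 in caNrf2 mice and 533, 577 and 515 in controls (log2 fold change 2.03 ± 0.07; limma, adjusted p = 1.36e-07). Txnrd1, the cytosolic thioredoxin reductase, read 4869, 4956 and 5196 against 2137, 2259 and 2073 (1.22 ± 0.06; limma, adjusted p = 2.85e-06). Gsr, which regenerates reduced glutathione, read 859, 913 and 983 against 424, 411 and 360 (1.21 ± 0.08; limma, adjusted p = 2.35e-05). For all 3 the groups were far apart, and caNrf2 replicate 3 was the highest of its group.

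The 22 measured short-chain dehydrogenases, the wider family of the Cbr genes, had no call in either direction, and their log2 fold changes ran from -0.16 to 0.19. At an unadjusted p under 0.05 in limma, 1 of the 22 was higher and 1 lower, against 10.8% and 9.55% of all genes. Nor did the 8 medium-chain reductases, the family of Ptgr1, have a call, with log2 fold changes from -0.20 to 0.27 and, at an unadjusted p under 0.05, 1 of 8 higher and 1 lower. Of 14 other aldo-keto reductases, 1 was higher, 1 was lower and 12 did not pass, where 2.26% of all genes were higher and 1.39% lower. At an unadjusted p under 0.05 in limma, 3 of the 14 were higher and 2 lower, against 10.8% and 9.55% of all genes. Akr1d1, a steroid reductase of bile acid synthesis, read 88.7, 80.3 and 79.2 in caNrf2 mice and 64.0, 60.7 and 60.2 in controls (log2 fold change 0.42 ± 0.07; limma, adjusted p = 0.00739). Its control values were about as high as the brightest Y-linked probe set. The second Akr1d1 probe set was similarly dim, with means of 75.4 in caNrf2 and 61.1 in control skin. In the fit over all probe sets it was also higher (log2 fold change 0.30 ± 0.06; limma, adjusted p = 0.0474). The Akr1d1 call held in all 15 alternatives. Akr1cl read 84.0, 81.5 and 88.0 in caNrf2 mice and 105, 114 and 102 in controls, so it fell, with a log2 fold change of -0.34 ± 0.07 (limma, adjusted p = 0.0212). Akr1cl missed the threshold when replicate 1 or 2 of either group was removed (adjusted p as high as 0.0732), and also as the mean of both its probe sets (adjusted p = 0.132). The dimmer of these probe sets had means of 9.67 in caNrf2 and 9.53 in control skin, within the range of the Y-linked probe sets.

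**Figure D3:**
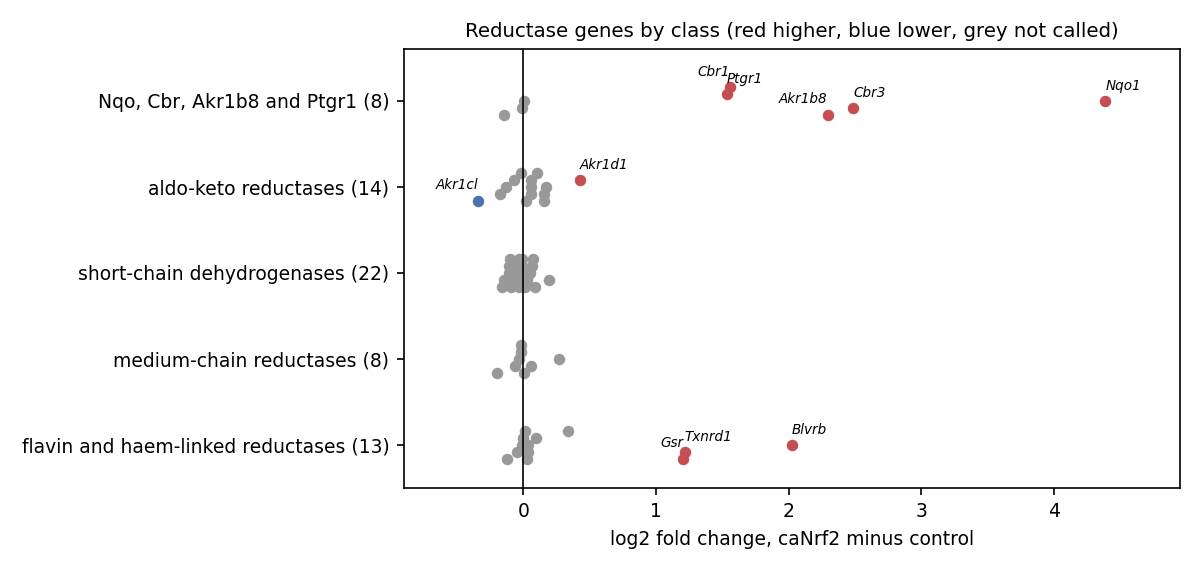
Log2 fold change (caNrf2 minus control) of each measured reductase gene by enzyme class, with the number of genes in parentheses; red points were called higher, blue lower and grey not called, and the vertical spread of the points carries no value. The short-chain and medium-chain classes lie within -0.20 and 0.27, and red points above 1 appear only among the set described here and the flavin and haem-linked reductases.

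Markers of skin cell types were measured on the same arrays. All 6 keratinocyte and all 6 fibroblast markers were on average brighter than any Y-linked probe set, and none was called. The keratinocyte list summed to 75583 to 77066 intensity units across caNrf2 mice and 73484 to 74981 across controls, and that of the fibroblast list 68967 to 70496 and 71072 to 73629. Melanocyte markers summed to 9765 to 10798 and 11554 to 12216, with Mlana and Mitf lower among 6. Of 3 sebocyte markers measured, Mgst1, also a glutathione transferase, was higher and Elovl3 and Scd3 were lower. Their median log2 fold change was -0.38. Their sum was 8122 to 8621 against 6123 to 6555, most of it from Mgst1, which alone read 7195 to 7771 against 4961 to 5279. Among 3 adipocyte markers Lep was lower, with overlapping sums. Endothelial, macrophage, mast cell, T cell, skeletal muscle and erythroid lists had no call, and their sums overlapped between the groups. The hair shaft list had no call either, but all 5 measured markers had log2 fold changes below 0 (median -0.25). Of these, 3 had separate groups, against 25.7% of all genes. The hair shaft sum of 14752 to 15897 in caNrf2 mice barely met that of 15895 to 19152 in controls. All 6 melanocyte, all 6 fibroblast and all 5 skeletal muscle markers also lay below 0, with separate groups in 5, 3 and 2 of them. Their median log2 fold changes were -0.22, -0.05 and -0.06, so the last 2 lists lay close to 0. Of all 18193 genes, 8839 had a log2 fold change above 0. The part of these cell types in the reductase values was not tested.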

How the data were processed

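RNA from whole back skin of 3 caNrf2 and 3 control mice was hybridised to 1 Affymetrix array each. The deposited values are intensities on a linear scale, summarised by the authors with RMA per the submitters' processing notes; the RMA version is not given in the sources used here. RMA equalises the distribution across arrays and would hide a common shift of most genes. The number of arrays limits the precision. Array medians ran from 80.3 to 81.6, and correlations of log2 intensity from 0.9973 to 0.998 within and 0.9949 to 0.9962 between groups.

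The array table holds 45101 probe sets, 64 of them controls. Of the rest, 34945 had 1 gene symbol (34741 updated by Entrez identifier with RefSeq's GRCm38.p6 table) and 932 had several. The brightest probe set stood for each gene. Log2 intensities were fitted with limma 3.58.1 (R 4.3.3; lmFit, eBayes; group as the only term, 4 residual degrees of freedom) and tested two-sided; the fit was tested on simulated data. P-values may in part measure technical spread. No dim genes were removed. Errors are SE of log2 fold changes or SD of intensities.

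All 10 genes are named with every probe set, and of the other reductases up to 8 called genes with the smallest p and any that fell, which came to 5 genes. The members and lists were chosen with earlier results of these data known. Alternatives left out arrays or changed the pseudocount, scaling, variance model, array weights, filter or choice of probe set.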

Additional observations from a re-analysis of the deposited data

How the results depend on the processing

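The calls of Nqo1, Cbr1, Cbr3, Akr1b8 and Ptgr1 and the count of 5 higher and 0 lower genes held in all 15 alternatives, with log2 fold changes of 4.10 to 4.44 for Nqo1, 1.53 to 1.58 for Cbr1, 2.44 to 2.52 for Cbr3, 2.19 to 2.39 for Akr1b8 and 1.50 to 1.56 for Ptgr1. Each of these 5 genes had 1 probe set. The replicate block, variance model, dim gene filter, mean of probe sets and joint fit of probe sets could therefore change their p but not their estimates. Cbr4 stayed uncalled, from -0.18 to -0.12. The uncalled estimate of Cbr2 lay between -0.0815 and 0.0487 with 1 array left out and at 0.0197 after a further quantile normalization, and that of Nqo2 between -0.0687 and 0.0543 with 1 array left out and at -0.0512 as the mean of its probe sets, so neither has a settled sign. The 3 pair differences kept their direction in 9 alternatives each. Pairs with Akr1b3 or Akr1b7, and fold changes of these genes, were not run.

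Counts were less stable. The number of other reductases that were higher ran from 4 to 6 over the 15 alternatives. With 1 array left out, 0 to 1 other reductases were lower, and 226 to 316 of all genes were higher and 72 to 196 lower, against 412 and 253; these fits had fewer arrays. Removing control replicate 1 left 226 higher and 72 lower genes, and removing caNrf2 replicate 3 left 244 and 95. Removing control replicate 3 left 265 higher genes, while lower genes numbered 146 when caNrf2 replicate 1 was removed and 131 for caNrf2 replicate 2. The lower count of other reductases was 0 as the mean of all probe sets. All genes lower numbered 501 with an intensity trend and robust variances and 390 with dim genes left out. Fitting all probe sets together gave 274 higher and 143 lower genes. The cause of these shifts was not tested.

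With the replicate number as a block, 0 other reductases were lower, since Akr1cl lost its call (adjusted p = 0.053), and 353 genes were higher and 237 lower. Setd4, tried after seeing the data, lost its call with the block and with all probe sets in 1 fit, at 0.0645 and 0.0683. The block changed no call of the 8 genes. Deviations of equally numbered arrays correlated at 0.0329, 0.135 and 0.0936, and not every array correlated best with its own number, so the numbers were not taken to pair the mice.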
